A study of Mus musculus with 9 samples.

Results

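The proteasome members are the 39 protein-coding genes of the table whose mouse symbol is Psma, Psmb, Psmc or Psmd followed by a number, out of 35771 gene rows in all. Of these, 19 belong to the 20S core particle (Psma and Psmb) and 20 to the 19S regulatory particle (Psmc and Psmd). Their RNA was measured in 9 libraries of sorted mouse embryonic stem cells (ESCs), 3 per group. The first group holds cells with 2 extra copies of Myc and of the yellow fluorescent protein EYFP, and the second holds cells with no extra copy of either. Both were sorted by EYFP level from mosaic cultures, 24 h after the removal of 20 µM 4-hydroxytamoxifen that had been given for 24 h. The third group holds sorted cells of uninduced cultures. All 3 groups are of mixed background and carry the homozygous iMOS T1-Myc allele together with RERT, an allele that supplies a tamoxifen-activated Cre recombinase, so the controls carry both alleles too. Induction makes a mosaic of cells with 2, 1 or no extra copy, and the cells with 1 copy were not analysed here. The design text calls the replicates biological, but the labels state neither whether they were separate cultures nor whether the line is 1 clone, so the p-values measure only the spread between these samples.

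The proteasome degrades proteins that carry ubiquitin chains. Its 20S core is a barrel of Psma rings, which gate the entrance, and Psmb rings, which hold the proteolytic sites, and the 19S particle binds ubiquitin, removes it and unfolds the substrate with a ring of Psmc ATPases. Pluripotent cells are known for high proteasome activity, and Myc is known for driving the synthesis of the cell's biosynthetic machinery.

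Levels are given in CPM, which are counts relative to the library size after TMM scaling, so they are shares of the RNA sequenced and do not show the amount of RNA per cell. Totals ran from 4165286 to 8872303 counts per library. Myc, the targeted gene, averaged 142 ± 4.36 CPM with 2 extra copies, 31.6 ± 0.913 CPM with no extra copy and 13.3 ± 1.51 CPM in uninduced cells (SD, n = 3 each). All 8 ESC markers examined were detected, and their summed level was 3323 ± 99.8 CPM with 2 extra copies, 3557 ± 31.7 CPM with no extra copy and 3417 ± 26.1 CPM in uninduced cells. The summed level of 9 fibroblast markers was 120 to 127 CPM with 2 extra copies, 193 to 218 CPM with no extra copy and 76.6 to 82.8 CPM in uninduced cells. Among these, Lum had 0 counts in 8 libraries, and Postn, Dcn and Lum were too low to be tested. In these bulk samples, fewer cells of a type and less RNA per cell cannot be told apart. Replicate 1 of the cells with 2 extra copies stood apart from the other 2 of its group in the summed levels of the members. It also differed in the trend of counts over transcript length, both given below. Its Myc level (138 CPM, against 147 and 141) and its ESC and fibroblast marker sums lay close to theirs. Results that turn on this replicate are also given without it. That choice rests on the values under study and not on a separate measure of quality.

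Promoters were searched for known motifs as a description of their sequence, and no test was made. RefSeq windows on GRCm38.p6, from 250 bases before to 50 bases after the transcription start, were available for 32 of the 39 members and for 27025 genes. Both strands were searched for CACGTG, the E-box sequence that Myc with its partner Max is known to bind. It stood in 3 members, or 9.38% of them, against 8.09% of all genes. These are the 3 members that held it, each shown with 40 bases on either side, read 5′ to 3′ on the strand of the gene, with CACGTG in capitals.
Psma4, chr9:54950679-54950764, plus strand: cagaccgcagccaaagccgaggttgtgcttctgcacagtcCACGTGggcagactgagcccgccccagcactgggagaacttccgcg
Psmb10, chr8:105938463-105938548, minus strand: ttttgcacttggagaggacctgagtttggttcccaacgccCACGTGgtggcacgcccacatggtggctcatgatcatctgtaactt
Psmd9, chr5:123228099-123228184, plus strand: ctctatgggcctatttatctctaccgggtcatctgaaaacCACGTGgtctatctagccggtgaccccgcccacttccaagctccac
The sequence began 140 bases before the start in Psma4, 116 bases before it in Psmb10 and 51 bases before it in Psmd9. Of these 3 genes only Psmb10 was called in a comparison with uninduced cells, as described below, and Psma4 and Psmd9 were called in none. CCAAT, the box bound by the factor NF-Y, stood in 40.6% of the members and 41.1% of all genes. TGANNNNGC, a loose form of the core of the antioxidant response element, which Nrf1 and Nrf2 are known to bind, stood in 59.4% of the members and 45.0% of all genes. It was found in 73.3% of the 15 genes of the 20S and in 47.1% of the 17 genes of the 19S particle that had a window. Psma6 and Psmc2 had more than 1 window, and a gene counted if any of its windows held the motif. No 2 of these motifs overlapped in a member. Among the 12 members with a window that were called higher with 2 extra copies than in uninduced cells, 1 held CACGTG, 6 CCAAT and 5 TGANNNNGC.

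Per length of transcript, the proteasome genes formed a narrow band with a tail of low members. Levels in CPM per kb were averaged over the 9 libraries. The 14 constitutive 20S subunits and the 17 subunits of the 19S particle other than its assembly chaperones spanned a 4.33-fold range, between 65.5 CPM per kb for Psma2 and 284 CPM per kb for Psmb6. The constitutive Psmb subunits had the highest median, 223 CPM per kb, followed by the Psma subunits other than Psma8 at 155, the Psmc ATPases at 143 and the non-ATPase Psmd subunits at 95.6 CPM per kb. Psmb6, Psmb5 and Psmb3 led the order with 284, 252 and 239 CPM per kb. Within this band the libraries of neighbouring genes overlapped, except between Psmb6 and Psmb5 and between Psmd7 at 127 CPM per kb and Psmd3 at 108. The low values of Psma2 and Psma3 rest on annotated transcripts of 2911 and 2846 bases, longer than those of the other Psma genes.

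Below a gap from 65.5 to 16.4 CPM per kb came members with roles outside the standard particle. The chaperones of 19S base assembly, Psmd5, Psmd10 and Psmd9, stood at 16.4, 13.2 and 11.8 CPM per kb. Psma8, the testis-specific counterpart of Psma7, reached 10.97 CPM per kb. The inducible catalytic subunits of the immunoproteasome followed, Psmb10 at 12.6, Psmb9 at 2.68 and Psmb8 at 1.01 CPM per kb. Psmb11, the thymus-specific catalytic subunit, had 0 to 7 counts per library and was too low to be tested, which left 38 members.

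**Figure D1:**
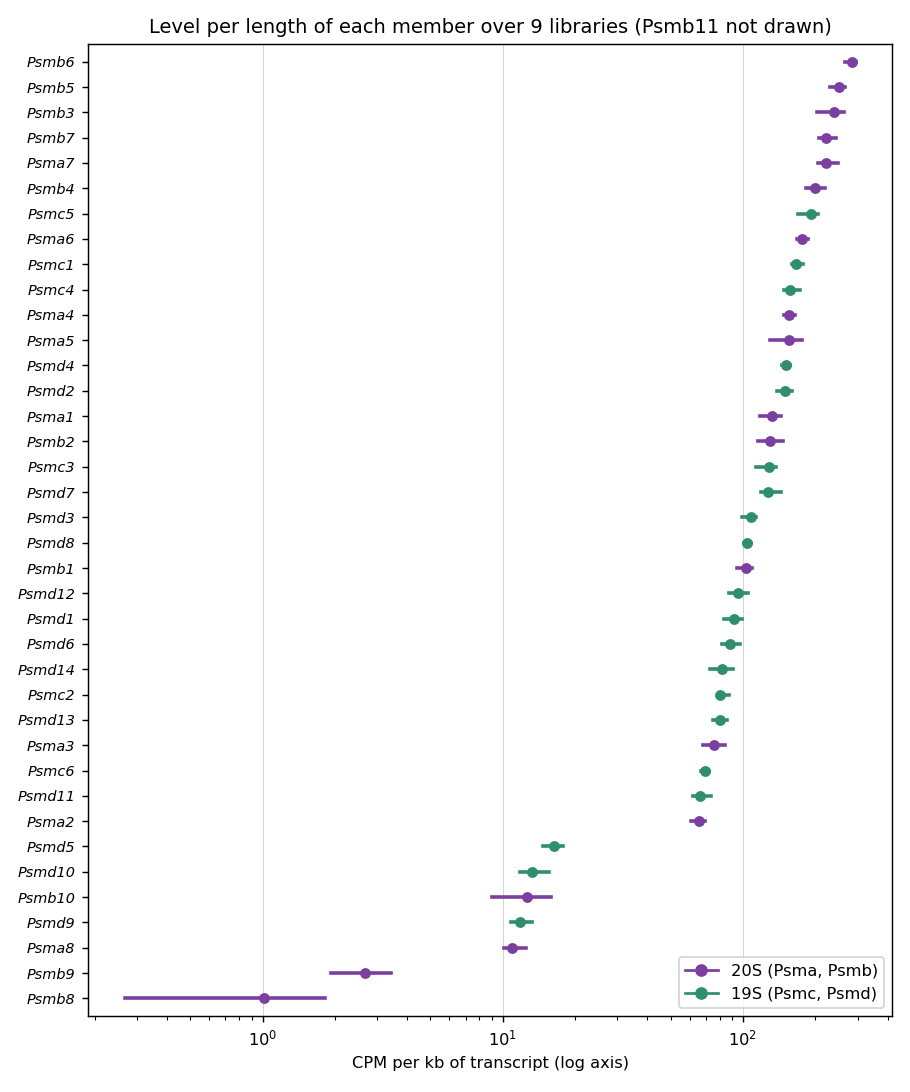
Level per length of 38 members (CPM per kb of transcript, log axis), with the mean over all 9 libraries as a point and the lowest to highest library as a line, 20S genes in purple and 19S genes in green. The constitutive subunits lie between 65.5 and 284 CPM per kb, and the assembly chaperones, Psma8 and the inducible subunits lie at 16.4 CPM per kb or below.

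A gene was called when edgeR's quasi-likelihood test gave an adjusted p (Benjamini-Hochberg over all 13424 genes tested) below 0.05. With 2 extra copies against no extra copy, both sorted from induced mosaic cultures and differing in Myc dose, 3 members were called higher (Psma3, Psma7 and Psmd7) and 1 lower (Psmb8). Among all genes tested, 8.30% were called higher and 7.70% lower, or 1114 and 1034 genes (774 and 1360 when scaled by library size only), so the share of members called higher, 7.89%, lay near the background. With 2 extra copies against uninduced cells, 15 members were called higher and 1 lower, Psmb8 again, where 12.8% of all genes were called higher and 12.1% lower. With no extra copy against uninduced cells, 3 members were called higher (Psma5, Psmb2 and Psmd1), against a background of 7.10%. No member was called lower there, against 6.39% of all genes. At an unadjusted p below 0.05, 5 members passed in that comparison, all of them higher, and DESeq2 and limma-voom called 0 lower. In all, 16 members were called in at least 1 comparison and 22 in none. Uninduced cells differ from both induced populations in induction and mosaic culture as well as in Myc level, and these cannot be told apart. Any 2 of these comparisons share 3 libraries, so their values are given side by side only.

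Most members are abundant genes, and abundant genes were called higher more often. The members with a mean of at least 100 CPM, a limit chosen after the values were seen, numbered 31. In the comparison of 2 extra copies with no extra copy, 9.68% of these 31 were called higher, against 25.6% of the 2317 genes at that level, of which 7.94% were called lower. With 2 extra copies against uninduced cells 45.2% of them were called higher, against 29.3% of those genes. With no extra copy against uninduced cells the shares were 9.68% and 10.9%. All 3 libraries with 2 extra copies lay above all 3 with no extra copy for 13 members (34.2% of the 38), against 15.4% of all genes. They lay above all 3 uninduced libraries for 17 members (44.7%), against 19.1% of all genes. Among genes with at least 100 CPM these shares were 38.7% of the members and 35.9% of all such genes against no extra copy, and 48.4% and 34.5% against uninduced cells.

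**Figure D2:**
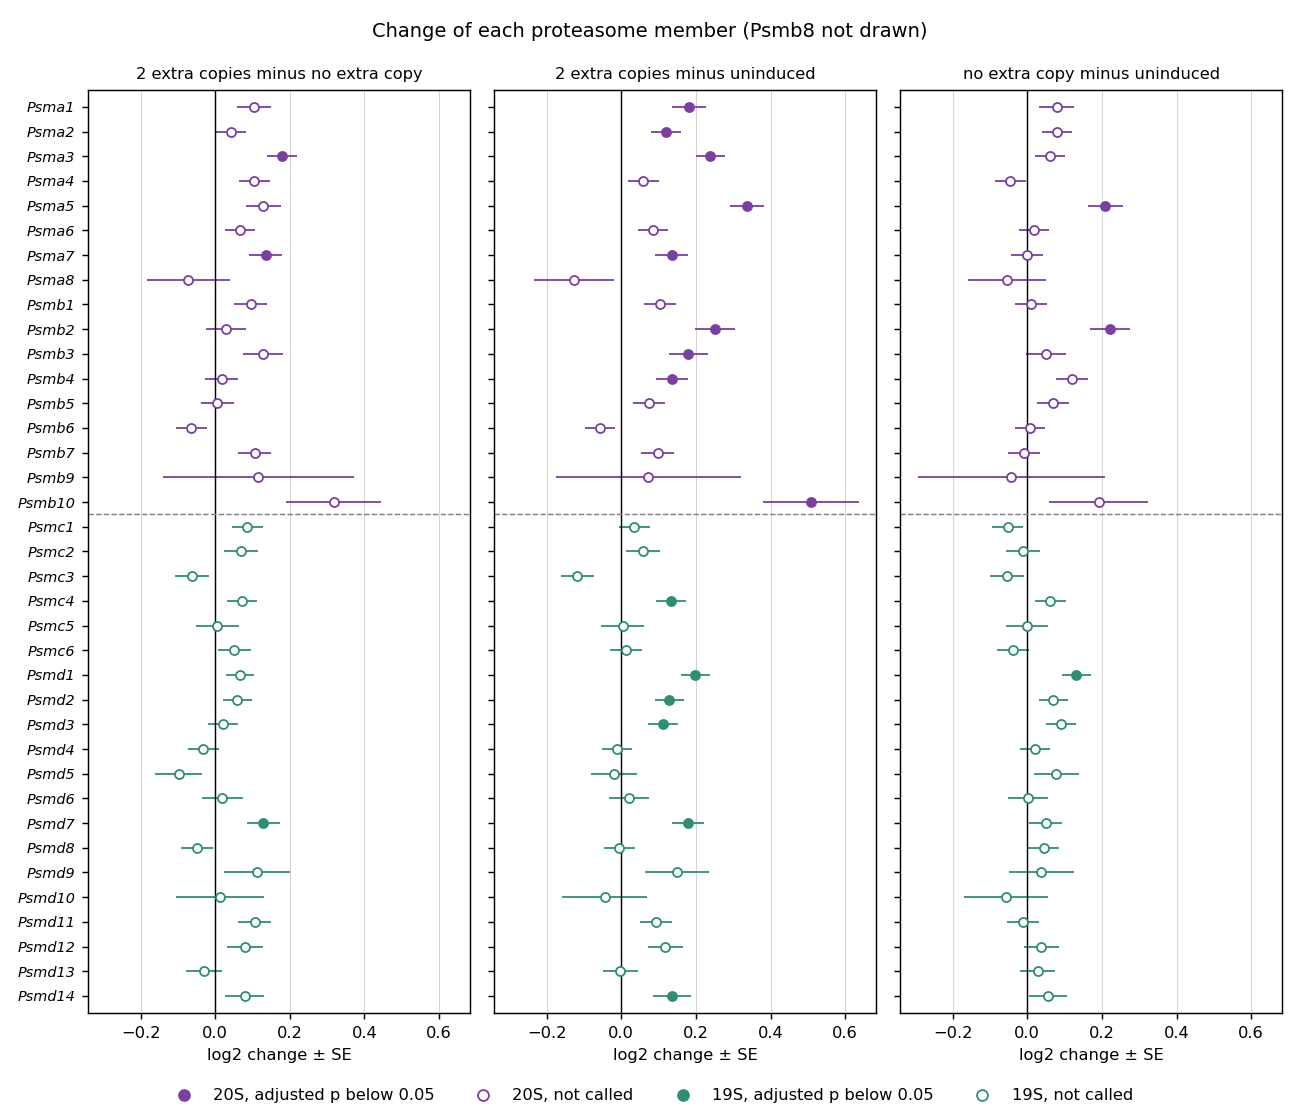
Change of 37 members (Psmb8 not drawn) in each comparison as log2 change with its SE (x axis), for 2 extra copies minus no extra copy, 2 extra copies minus uninduced, and no extra copy minus uninduced. Filled points were called, 20S genes (purple) stand above the dashed line and 19S genes (green) below it; in the middle panel 9 points of 20S genes and 6 of 19S genes are filled, all of them above 0.

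The 20S genes had a larger median change than the 19S genes in both comparisons of cells with 2 extra copies. The median log2 change was 0.10 over 18 genes of the 20S particle and 0.06 over 20 of the 19S particle for 2 extra copies against no extra copy, and -0.01 over all genes tested. Without replicate 1 with 2 extra copies these medians were 0.13 and 0.10, and with library size alone that of the 19S particle was 0.02. For 2 extra copies against uninduced cells the medians were 0.11 for the 20S and 0.05 for the 19S particle, against -0.01 for all genes. For no extra copy against uninduced cells they were 0.03 for either particle and 0.00 for all genes. Over the 2317 genes with at least 100 CPM the medians were 0.05, 0.04 and -0.01, in the order of these comparisons. Members at that level had medians of 0.10, 0.13 and 0.06 for the 20S and 0.06, 0.06 and 0.03 for the 19S particle. Between the induced populations the 19S median thus lay near that of abundant genes. In the comparison with uninduced cells, 9 genes of the 20S particle and 6 of the 19S particle were called higher with 2 extra copies. No test of the difference between the particles was made over the genes, which are not replicates.

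The summed level per length was therefore taken in each library. The 20S members summed to 2454, 2592 and 2595 CPM per kb with 2 extra copies, 2434, 2454 and 2396 in those with no extra copy, and 2271, 2360 and 2395 in uninduced cells. All 3 libraries with 2 extra copies lay above all uninduced libraries, while replicate 1 with 2 extra copies lay level with the highest library with no extra copy. The 19S members summed to 1938, 2065 and 2068 CPM per kb with 2 extra copies, 1974, 1978 and 1968 in those with no extra copy, and 1900, 1939 and 1987 in uninduced cells. Here the groups overlapped, since replicate 1 with 2 extra copies was below every library with no extra copy.

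The ratio of the 20S to the 19S sum was highest with 2 extra copies. It averaged 1.26 ± 0.00661 with 2 extra copies, 1.23 ± 0.0118 with no extra copy and 1.21 ± 0.0112 in uninduced cells (SD, n = 3 each). The lowest library with 2 extra copies, at 1.255, lay above the highest with no extra copy, at 1.241, and the ratio was 1.04-fold higher than in uninduced cells. With the median over members in place of the sum, the log2 difference of the ratio against no extra copy was 0.00296 in place of 0.03, so that step rests on how the members are combined, while against uninduced cells it was 0.08 in place of 0.06. The constitutive 20S transcripts are shorter, with a median of 1162.5 bases against 1785 bases for the 19S particle without its chaperones, and the trend of counts over transcript length differed between libraries. Its slope, in log2 per doubling of length, was 0.0052, -0.0427 and -0.0522 with 2 extra copies, -0.00351, 0.00363 and 0.0158 in those with no extra copy, and 0.0426, 0.0166 and 0.0146 in uninduced cells. With that trend removed, the median log2 change with 2 extra copies against no extra copy was 0.09 for the 20S and 0.05 for the 19S particle, and against uninduced cells 0.08 and 0.03. With no extra copy against uninduced cells it became -0.00417 for the 20S and 0.02 for the 19S particle.

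**Figure D3:**
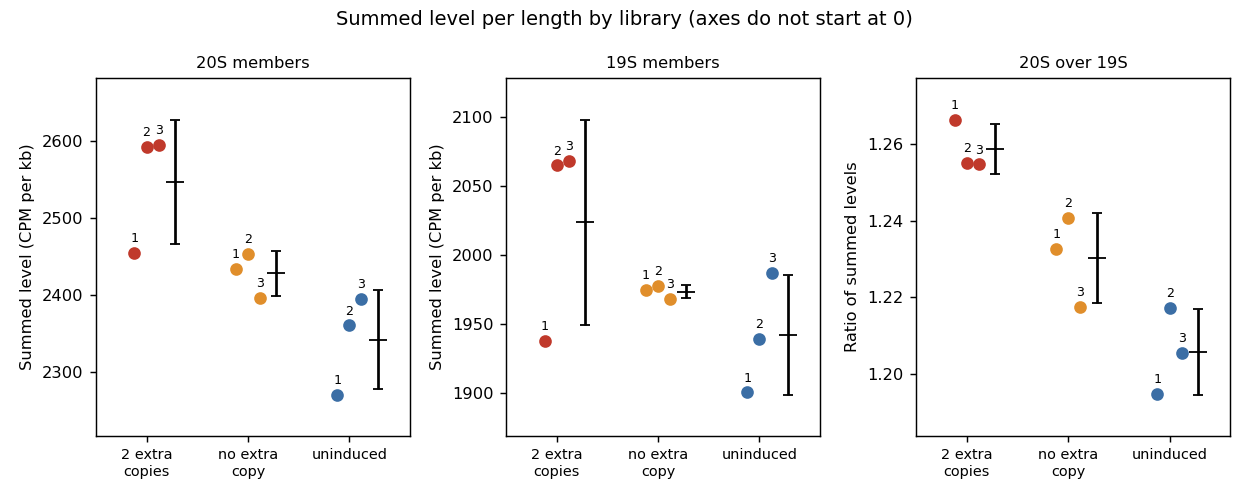
Summed level per length (CPM per kb) of the 20S and the 19S members and the ratio of both, one point per library with its replicate number, and the mean with SD beside each group; the axes do not start at 0. Replicate 1 with 2 extra copies is the lowest of its group in both sums and the highest in the ratio.

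The Psma genes encode the outer rings of the core, whose tails gate the channel. Psma5 (ENSMUSG00000068749; GRCm38 chromosome 3, 108256926 to 108279974, plus strand) changed most among them. It had 203, 218 and 217 CPM with 2 extra copies, 207, 183 and 196 CPM with no extra copy and 177, 168 and 161 CPM in uninduced cells. Every library with 2 extra copies and every library with no extra copy was above every uninduced library, while the 2 induced populations overlapped. Psma5 was 1.26-fold higher (log2 0.34, SE 0.046, adjusted p = 1.48e-06) against uninduced cells, and cells with no extra copy were 1.16-fold higher (log2 0.21, SE 0.047, adjusted p = 0.002) against them. Between the induced populations the adjusted p of Psma5 was 0.0565, and it was 0.00447 without replicate 1 with 2 extra copies and 0.0238 without replicate 1 with no extra copy.

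Psma3 (ENSMUSG00000060073; chromosome 12, 70974621 to 70996347, plus strand) was the member called between the induced populations with the smallest adjusted p. It had 236, 234 and 239 CPM with 2 extra copies, 213, 208 and 206 CPM with no extra copy and 199, 207 and 194 CPM in uninduced cells. The 3 libraries with 2 extra copies lay close together and above the other 6. Psma3 was 1.13-fold higher (log2 0.18, SE 0.040, adjusted p = 0.00184) against no extra copy and 1.18-fold higher (log2 0.24, SE 0.040, adjusted p = 2.52e-05) against uninduced cells. No extra copy and uninduced cells overlapped and had an adjusted p of 0.361. Both calls of Psma3 were kept under all 19 alternatives run.

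Psma7 had 201, 216 and 227 CPM with 2 extra copies, 192, 198 and 197 CPM with no extra copy and 189, 197 and 202 CPM in uninduced cells. It was 1.10-fold higher (log2 0.14, SE 0.044, adjusted p = 0.0317) against no extra copy, with no overlap, and 1.10-fold higher (log2 0.14, SE 0.044, adjusted p = 0.0203) against uninduced cells, with overlap. The first call was lost when any 1 library of either induced population other than replicate 1 with 2 extra copies was left out (adjusted p 0.0645 to 0.185) and with library size alone (0.109), by DESeq2 (0.129) and in a fit of the 6 libraries of the induced populations (0.0542), and without that replicate the adjusted p was 0.000735. The second was lost without replicate 2 or 3 with 2 extra copies (0.0611 and 0.167) and without uninduced replicate 1 or 2 (0.121 and 0.0567), with the length trend removed (0.19) and by DESeq2 (0.0894).

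Psma1 had 164, 171 and 174 CPM with 2 extra copies, 164, 157 and 151 CPM with no extra copy and 142, 156 and 149 CPM in uninduced cells. Its libraries with 2 extra copies overlapped those with no extra copy and lay above all uninduced ones, by 1.13-fold (log2 0.18, SE 0.046, adjusted p = 0.00299). Psma2 had 194, 197 and 202 CPM with 2 extra copies, 191, 193 and 192 CPM with no extra copy and 177, 184 and 185 CPM in uninduced cells. The groups did not overlap and the steps were small, highest with 2 extra copies and lowest in uninduced cells. Between the induced populations the adjusted p was 0.551. The difference called was 2 extra copies against uninduced cells at 1.09-fold (log2 0.12, SE 0.040, adjusted p = 0.0239). That call was lost without uninduced replicate 1 (0.116) or 2 (0.0502) and without replicate 2 (0.0522) or 3 (0.0987) with 2 extra copies, and with library size alone (0.0543), no filter (0.0757) or DESeq2 (0.108). Psma4 and Psma6 were 1.08-fold and 1.05-fold above no extra copy and passed no test, with adjusted p of 0.0867 and 0.294. Psma8 had 17.2, 18.4 and 17.7 CPM with 2 extra copies, 19.04, 19.1 and 17.4 CPM with no extra copy and 18.4, 18.8 and 21.1 CPM in uninduced cells, and its groups overlapped throughout.

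The Psmb genes encode the inner rings. Psmb5, Psmb6 and Psmb7 carry the chymotrypsin-like, caspase-like and trypsin-like sites, and none of them was called in any comparison. Psmb5 had 219, 238 and 236 CPM with 2 extra copies, 232, 235 and 222 CPM with no extra copy and 208, 221 and 230.3 CPM in uninduced cells. Psmb6 had 211, 231 and 218 CPM with 2 extra copies, 230.2, 236 and 224 CPM with no extra copy and 229, 227 and 231 CPM in uninduced cells. Psmb7 had 253, 276 and 282 CPM with 2 extra copies, 253, 257 and 242 CPM with no extra copy and 239, 256 and 264 CPM in uninduced cells. In all 3 genes the groups overlapped, and replicate 1 was the lowest of the libraries with 2 extra copies. The changes with 2 extra copies against no extra copy were 1.00-fold for Psmb5, 1.08-fold for Psmb7 and 1.05-fold lower for Psmb6, with adjusted p of 0.959, 0.104 and 0.320. Without replicate 1 with 2 extra copies Psmb7 passed against no extra copy (adjusted p = 0.00399) and against uninduced cells (0.00447), and Psmb5 against uninduced cells (0.0268). Psmb6, by contrast, was called lower with 2 extra copies than in uninduced cells once the length trend was removed (log2 -0.13, adjusted p = 0.0101). Exons of Nek6 on the other strand cover 11.8% of the exonic bases of Psmb7, and no source used here says whether counting used strand.

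Psmb2 and Psmb4, which have no proteolytic site, separated both induced populations from uninduced cells. Psmb2 (ENSMUSG00000028837; chromosome 4, 126677630 to 126709714, plus strand) had 121, 109.9 and 126 CPM with 2 extra copies, 114, 124 and 111 CPM with no extra copy and 102, 99.3 and 99.7 CPM in uninduced cells. The induced populations overlapped each other and lay above all uninduced libraries. Psmb2 was 1.19-fold higher (log2 0.25, SE 0.054, adjusted p = 0.000654) with 2 extra copies and 1.17-fold higher (log2 0.22, SE 0.054, adjusted p = 0.00397) with no extra copy, both against uninduced cells. The second call was lost without replicate 2 with no extra copy (0.094) and by DESeq2 (0.0844). Psmb4 had 235, 259 and 237 CPM with 2 extra copies, 229, 246 and 246 CPM with no extra copy and 217, 219.9 and 227 CPM in uninduced cells, again with no uninduced library inside the range of the others. It was 1.10-fold higher (log2 0.14, SE 0.043, adjusted p = 0.0181) with 2 extra copies against uninduced cells, a call lost without uninduced replicate 1 (0.0785) or 2 (0.0687), without replicate 2 with 2 extra copies (0.166), with the length trend removed (0.105) and by DESeq2 (0.0624). With no extra copy it stood 1.09-fold above uninduced cells, with an adjusted p of 0.0632, and 0.037 without replicate 1 with no extra copy and 0.0365 without replicate 1 with 2 extra copies. Psmb3 was called at 1.13-fold with 2 extra copies against uninduced cells (adjusted p = 0.0135), which was lost without uninduced replicate 1 (0.122) and without replicate 2 (0.0539) or 3 (0.0658) with 2 extra copies, and with the length trend removed (0.073). Psmb1 passed no test, with 1.08-fold against uninduced cells and an adjusted p of 0.0742, or 0.0352 without replicate 1 with 2 extra copies.

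The inducible subunits Psmb8, Psmb9 and Psmb10 replace Psmb5, Psmb6 and Psmb7 in the immunoproteasome, which interferon induces. Psmb10 (ENSMUSG00000031897; chromosome 8, 105935735 to 105938444, minus strand) had 18.4, 20.2 and 20.9 CPM with 2 extra copies, 14.3, 18.0 and 14.5 CPM with no extra copy and 13.2, 11.8 and 17.2 CPM in uninduced cells. All libraries with 2 extra copies lay above all others, and the other 2 groups overlapped. Psmb10 was 1.42-fold higher (log2 0.51, SE 0.13, adjusted p = 0.00319) against uninduced cells, where DESeq2 gave an adjusted p of 0.063. Against no extra copy it was 1.25-fold higher with an adjusted p of 0.0902, and 0.0429 without replicate 1 with 2 extra copies and 0.0406 without replicate 2 with no extra copy. Per length, Psmb10 made up 6.09% ± 0.0522 of the sum of Psmb10 and Psmb7 with 2 extra copies, 5.20% ± 0.554 with no extra copy and 4.68% ± 0.762 in uninduced cells (SD, n = 3 each).

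Psmb8 (ENSMUSG00000024338; chromosome 17, 34197721 to 34201454, plus strand) went the other way at a very low level. It had 3, 3 and 3 counts with 2 extra copies, 7, 25 and 10 counts with no extra copy, and 21, 12 and 16 counts in uninduced cells. No library with 2 extra copies reached the lowest of the others. Summed over the group and scaled to the library sizes, Psmb8 was 4.45-fold lower with 2 extra copies than with no extra copy (95% counting interval 2.13 to 10.4; adjusted p = 0.00249) and 4.58-fold lower than in uninduced cells (2.23 to 10.6; adjusted p = 0.00082). These intervals cover counting error only. The first call was lost without replicate 2 with no extra copy (adjusted p = 0.0596), and DESeq2, with its own filter, gave no adjusted p for either. With 3 counts per library with 2 extra copies, Psmb8 passed the count filter only through the groups where it was higher. Its calls are therefore given as description and not as support for a change. In a fit of the induced populations alone it was not tested. Psmb8 made up 0.120% ± 0.0164 of the sum of Psmb8 and Psmb5 per length with 2 extra copies, 0.507% ± 0.198 with no extra copy and 0.580% ± 0.200 in uninduced cells.

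Psmb9 (chromosome 17, 34181987 to 34187764, minus strand) lies beside Psmb8 with the peptide transporter gene Tap1 between them. It had 3.33, 4.16 and 3.91 CPM with 2 extra copies, 3.40, 3.68 and 3.33 CPM with no extra copy and 4.64, 3.53 and 2.62 CPM in uninduced cells, from 69, 67 and 78 counts in all per group, and its groups overlapped. Its ratio of summed counts was 1.08 with 2 extra copies over no extra copy (95% counting interval 0.761 to 1.54), so a change as large as that of its neighbour Psmb8 lay outside the interval. Exons of Tap1 on the other strand cover 5.79% of the exonic bases of Psmb9. Of the 3 inducible genes, Psmb10 was thus called higher and Psmb9 not called for 2 extra copies against uninduced cells. Psmb8 was called lower there, with the limit of the count filter given above.

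**Figure D4:**
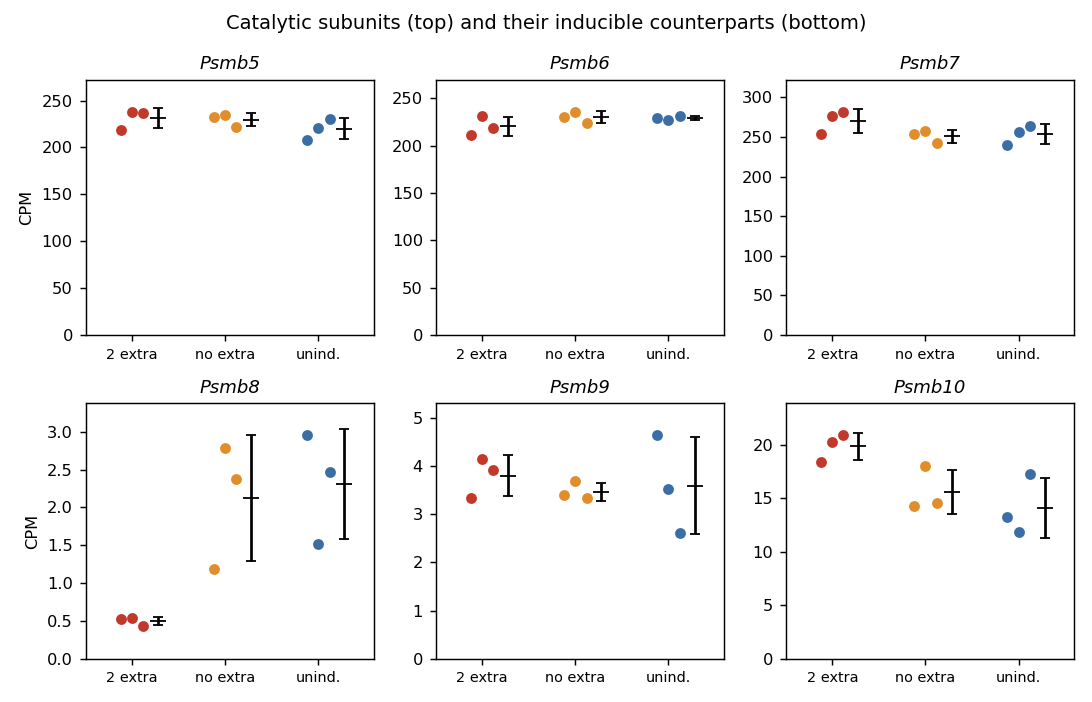
Level in CPM (y axis, from 0, a separate scale per gene) of the constitutive catalytic genes Psmb5, Psmb6 and Psmb7 and of the inducible genes Psmb8, Psmb9 and Psmb10 in each library, with the mean and SD of 3 libraries beside each group. Psmb8 lies at 0.435 to 0.542 CPM with 2 extra copies and at 1.19 CPM or above elsewhere, and Psmb10 lies at 18.4 CPM or above with 2 extra copies and at 18.0 CPM or below elsewhere.

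The 6 Psmc genes encode the ATPase ring that unfolds substrates and opens the core. Only Psmc4 was called, and in 1 comparison. Psmc4 had 227, 238 and 248 CPM with 2 extra copies, 223, 226 and 231 CPM with no extra copy and 214, 221 and 216 CPM in uninduced cells, so that all induced libraries lay above all uninduced ones. It was 1.10-fold higher (log2 0.13, SE 0.040, adjusted p = 0.0133) with 2 extra copies against uninduced cells, a call lost without uninduced replicate 1 (0.0567), without replicate 3 with 2 extra copies (0.0985) and by DESeq2 (0.0551). Psmc1 had 264, 272 and 281 CPM with 2 extra copies, 260.1, 255 and 255 CPM with no extra copy and 255, 261 and 283 CPM in uninduced cells. Its libraries with 2 extra copies lay above all those with no extra copy, with 1.06-fold and an adjusted p of 0.169, or 0.0328 without replicate 1 with 2 extra copies. Psmc2 had 141, 147 and 156 CPM with 2 extra copies, 141, 141 and 142 CPM with no extra copy and 143, 142 and 142 CPM in uninduced cells, with overlap.

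Psmc3 was the lowest of the ATPases in its change. It had 205, 242 and 225 CPM with 2 extra copies, 235, 236 and 231 CPM with no extra copy and 241, 239 and 249 CPM in uninduced cells. Replicate 1 with 2 extra copies was the lowest of the 9 libraries, and replicate 2 with 2 extra copies lay within the uninduced range. Psmc3 stood 1.09-fold lower with 2 extra copies than in uninduced cells, with an adjusted p of 0.0504. The adjusted p was 0.00861 without replicate 2 with 2 extra copies and 0.00954 with the length trend removed, and it ranged from 0.0188 to 0.0472 with library size alone, upper-quartile factors and limma-voom. Exons of Slc39a13 on the other strand cover 8.25% of the exonic bases of Psmc3. The remaining ATPases, Psmc5 and Psmc6, changed by at most 1.04-fold in any comparison and were not called.

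The Psmd genes encode the scaffold, ubiquitin receptors and lid of the 19S particle. Psmd1 (ENSMUSG00000026229; chromosome 1, 86064387 to 86139151, plus strand), the largest scaffold subunit, had 299, 303 and 307 CPM with 2 extra copies, 292, 283 and 295 CPM with no extra copy and 262, 259 and 272 CPM in uninduced cells. The groups did not overlap, with uninduced cells lowest. Psmd1 was 1.15-fold higher (log2 0.20, SE 0.038, adjusted p = 0.000187) with 2 extra copies and 1.10-fold higher (log2 0.13, SE 0.038, adjusted p = 0.0178) with no extra copy, both against uninduced cells. The second call was lost without uninduced replicate 1 (0.0662) or 2 (0.103), without replicate 1 (0.0694) or 3 (0.078) with no extra copy, with no filter (0.0633) and by DESeq2 (0.101). Between the induced populations its adjusted p was 0.262.

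Psmd7 (ENSMUSG00000039067; chromosome 8, 107580381 to 107588464, minus strand), the partner of the deubiquitinase Psmd14 in the lid, was the 19S gene called between the induced populations. It had 203, 215 and 227 CPM with 2 extra copies, 188, 199.6 and 203 CPM with no extra copy and 194, 189.5 and 187 CPM in uninduced cells. The lowest library with 2 extra copies, replicate 1, was level with the highest with no extra copy. Psmd7 was 1.09-fold higher (log2 0.13, SE 0.044, adjusted p = 0.0405) against no extra copy and 1.13-fold higher (log2 0.18, SE 0.043, adjusted p = 0.00233) against uninduced cells. The first call was lost when any 1 of 6 libraries was left out, which were replicates 2 and 3 with 2 extra copies, 1 and 2 of the cells with no extra copy, and 2 and 3 of the uninduced cells (adjusted p 0.0522 to 0.22), and with library size alone (0.143), by DESeq2 (0.156) and in a fit of the 6 libraries of the induced populations (0.0748). Without replicate 1 with 2 extra copies it was 0.00161. The second call was kept under all 19 alternatives.

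Psmd2, the other large scaffold subunit, had 447, 469.6 and 473 CPM with 2 extra copies, 458, 449.7 and 425 CPM with no extra copy and 418, 409 and 445 CPM in uninduced cells. It was 1.09-fold higher (log2 0.13, SE 0.039, adjusted p = 0.014) with 2 extra copies against uninduced cells, without overlap. Psmd3, a lid subunit, had 238, 239 and 239 CPM with 2 extra copies, 228, 234 and 244 CPM with no extra copy and 212, 221 and 229 CPM in uninduced cells, and it was 1.08-fold higher (log2 0.11, SE 0.040, adjusted p = 0.0417) in the same comparison. Psmd14, the deubiquitinase itself, was 1.10-fold higher there with overlap (adjusted p = 0.0489), a call kept under only 5 of 19 alternatives. It was lost with library size alone, upper-quartile factors, limma-voom, DESeq2, no filter and the length trend removed (0.0558 to 0.187). The call of Psmd3 was kept under 10 of 19 and lost with library size alone, upper-quartile factors, DESeq2 and no filter (0.0671 to 0.12). Without uninduced replicate 1 the adjusted p was 0.0522 for Psmd2, 0.2 for Psmd3 and 0.284 for Psmd14, and without replicate 2 with 2 extra copies it was 0.0569, 0.0939 and 0.243. Without replicate 3 with 2 extra copies Psmd2 (0.0598) and Psmd3 (0.0859) were lost, and without uninduced replicate 2 all 3 were (0.0693 to 0.108). Psmd3 and Psmd14 were lost without replicate 2 with no extra copy (0.0517 and 0.0533), and Psmd14 also without replicate 1 (0.0578) or 3 (0.0577) of that group.

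Psmd11, a lid subunit, had 190.0, 210.1 and 194 CPM with 2 extra copies, 184, 189 and 176 CPM with no extra copy and 182, 185 and 190.0 CPM in uninduced cells. All libraries with 2 extra copies were at or above the highest of the others, with 1.08-fold against no extra copy and an adjusted p of 0.0997, or 0.0152 without replicate 1 with 2 extra copies. Psmd12 had an adjusted p of 0.0643 against uninduced cells at 1.09-fold, and 0.00616 without that library or 0.0277 without uninduced replicate 2. The ubiquitin receptor Psmd4 and the lid subunits Psmd6, Psmd8 and Psmd13 changed by at most 1.03-fold in any comparison and were not called. The assembly chaperones Psmd5, Psmd9 and Psmd10 were not called either, and their largest change was 1.11-fold for Psmd9 with 2 extra copies against uninduced cells.

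Single libraries moved the counts of called members. Without replicate 1 with 2 extra copies, 8 genes of the 20S and 5 of the 19S particle were called higher against no extra copy, in place of 2 and 1. The added genes were Psma1, Psma4, Psma5, Psmb3, Psmb7, Psmb10, Psmc1, Psmc4, Psmd11 and Psmd12. Without replicate 2 or 3 with 2 extra copies only 1 of the 20S and 0 of the 19S genes were called there. Without uninduced replicate 1, 5 of the 20S and 2 of the 19S particle were called higher with 2 extra copies than in uninduced cells, in place of 9 and 6. Without replicate 2 with 2 extra copies these counts were 5 and 3, and without replicate 3 only 3 of the 19S genes were called. Calls over all genes moved as well when 1 library was left out. Those called higher with 2 extra copies ranged over 750 to 1466 against no extra copy, in place of 1114. Against uninduced cells they ranged over 1306 to 2004, in place of 1721. The moves of the member counts are thus not read as particular to the members. With 2 extra copies against uninduced cells, Psma1, Psma3, Psma5, Psmb2, Psmb8, Psmb10, Psmd1 and Psmd7 kept their call whichever library was left out. Summed fibroblast markers were also higher with 2 extra copies than in uninduced cells, 1.53-fold. Of the 6 tested, 5 were called higher, against 12.8% of all genes, and 1 was negative but not called. The sum was 2.56-fold higher with no extra copy than in uninduced cells, with 5 of the 6 called higher, against 7.10% of all genes. Between the induced populations, 4 of the 6 were called lower with 2 extra copies than with no extra copy, against 7.70% of all genes. Of 8 ESC markers, 4 were called lower with 2 extra copies than with no extra copy, which were Pou5f1, Sox2, Nanog and Klf4, at 1.09-fold to 1.23-fold. Among all genes 7.70% were called lower there. Against uninduced cells the ESC markers were mixed. With 2 extra copies Dppa5a was called higher and Sox2 and Tdgf1 lower. With no extra copy Nanog, Esrrb, Klf4 and Dppa5a were called higher and Sox2 and Tdgf1 lower. Of 4 neuroectoderm markers, 3 were called lower with 2 extra copies than with no extra copy (Pax6 at 1.75-fold, Sox1 at 1.36-fold and Nes at 1.18-fold). Against uninduced cells 2 were called lower with 2 extra copies (Pax6 at 1.87-fold and Nes at 1.21-fold), against 12.1% of all genes. Their summed level was 178 to 185 CPM with 2 extra copies, 189 to 201 CPM with no extra copy and 189 to 199 CPM in uninduced cells. Of 7 extraembryonic endoderm markers 2 were tested, and Dab2 was called lower with 2 extra copies, 1.60-fold against no extra copy and 1.45-fold against uninduced cells. The part of these markers in the changes of the members was not tested.

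Other genes of the pathway were read from lists chosen with earlier results of these data known. Of the 5 chaperones that assemble the core, 3 were called higher with 2 extra copies than in uninduced cells, and 1 with no extra copy, against 12.8% and 7.10% of all genes. Of these calls those of Pomp were kept under all 19 alternatives, and those of Psmg1 and Psmg3 were not. Pomp, which completes the maturation of the core, had 134, 132 and 142 CPM with 2 extra copies, 126, 128 and 123 CPM with no extra copy and 105, 103 and 105 CPM in uninduced cells. The 3 groups did not overlap. Pomp was 1.31-fold higher (log2 0.39, SE 0.047, adjusted p = 1.37e-07) with 2 extra copies and 1.21-fold higher (log2 0.27, SE 0.047, adjusted p = 8e-05) with no extra copy, both against uninduced cells. Psmg3 had 26.3, 30.5 and 28.2 CPM with 2 extra copies, 25.7, 20.9 and 23.3 CPM with no extra copy and 20.5, 22.4 and 24.5 CPM in uninduced cells. It was called at 1.23-fold against no extra copy (adjusted p = 0.0420) and 1.26-fold against uninduced cells (0.0123), but the first was lost without replicate 2 (0.159) or 3 (0.0824) with 2 extra copies, replicate 2 (0.304) or 3 (0.0719) with no extra copy, or uninduced replicate 2 (0.0536). The second was lost without uninduced replicate 1 (0.0788) or replicate 2 with 2 extra copies (0.0690). Psmg1 was called at 1.12-fold against uninduced cells (adjusted p = 0.0382), a call lost without any 1 uninduced library (0.0656 to 0.131) and without replicate 2 (0.0758) or 3 (0.178) with 2 extra copies. Psmg4 and Psmg2 were not called.

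The activators that cap the core in place of the 19S particle split. Psme3, the subunit of the nuclear activator PA28γ, had 299.9, 309 and 316 CPM with 2 extra copies, 260.4, 269 and 262 CPM with no extra copy and 244, 260.0 and 266 CPM in uninduced cells. All libraries with 2 extra copies lay above all others. Psme3 was 1.17-fold higher (log2 0.22, SE 0.040, adjusted p = 0.000156) against no extra copy and 1.20-fold higher (log2 0.27, SE 0.040, adjusted p = 5.5e-06) against uninduced cells. Psme2, a subunit of the interferon-induced activator PA28αβ, had 49.96, 54.0 and 53.2 CPM with 2 extra copies, 62.4, 64.4 and 60.0 CPM with no extra copy and 62.6, 66.3 and 64.8 CPM in uninduced cells. All libraries with 2 extra copies lay below all others, by 1.20-fold against no extra copy (adjusted p = 0.00559) and 1.23-fold against uninduced cells (adjusted p = 0.000557). The first of these was 0.0545 without replicate 2 with no extra copy. Its partner Psme1, which stood 1.12-fold lower against no extra copy, was not called (adjusted p = 0.0925), and neither were the activator Psme4 and the inhibitor Psmf1.

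Among 7 further subunits and enzymes that bind the proteasome, Ube3c, a ligase that extends ubiquitin chains, was called higher with 2 extra copies, 1.17-fold against no extra copy (adjusted p = 0.00373) and 1.15-fold against uninduced cells (0.00419). The proteasome-bound thioredoxin Txnl1 and the deubiquitinase Uchl5 were called higher against uninduced cells, 1.15-fold (0.00194) and 1.14-fold (0.0169). The call of Uchl5 was lost without uninduced replicate 1 (0.0629) or 3 (0.0683) and without replicate 2 (0.0536) or 3 (0.141) with 2 extra copies. Ecpas, a scaffold that tethers the core and the 19S particle, was called lower than in uninduced cells in both induced populations, 1.19-fold with 2 extra copies (0.010) and 1.26-fold with no extra copy (0.00122). Its first call was lost without uninduced replicate 1 (0.0512) or replicate 3 with 2 extra copies (0.119) and with the length trend removed (0.118).

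Of 11 genes of transcriptional control, the one with the smallest adjusted p was Nfe2l1, which encodes Nrf1, the factor known to induce proteasome genes when proteasome activity falls short. Nfe2l1 had 244, 259.8 and 256 CPM with 2 extra copies, 269.8, 271 and 276 CPM with no extra copy and 321, 329 and 311 CPM in uninduced cells. All induced libraries lay below all uninduced ones. Nfe2l1 was 1.26-fold lower with 2 extra copies (adjusted p = 5.44e-08) and 1.18-fold lower with no extra copy (adjusted p = 4.1e-05), both against uninduced cells. Its activating protease gene Ddi2 had adjusted p of at least 0.569 in every comparison, and Ngly1, which deglycosylates Nrf1, stood at 3.33 to 6.16 CPM and was not called. Mafk, a small Maf partner, was called higher at 1.29-fold with 2 extra copies (0.0186) and at 1.39-fold with no extra copy (0.00468), and Nfyb, a subunit of NF-Y, lower at 1.18-fold with no extra copy (0.00164), all against uninduced cells. The Mafk call with 2 extra copies was lost without uninduced replicate 1 or 2 or replicate 3 with 2 extra copies (0.0717 to 0.0744).

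**Figure D5:**
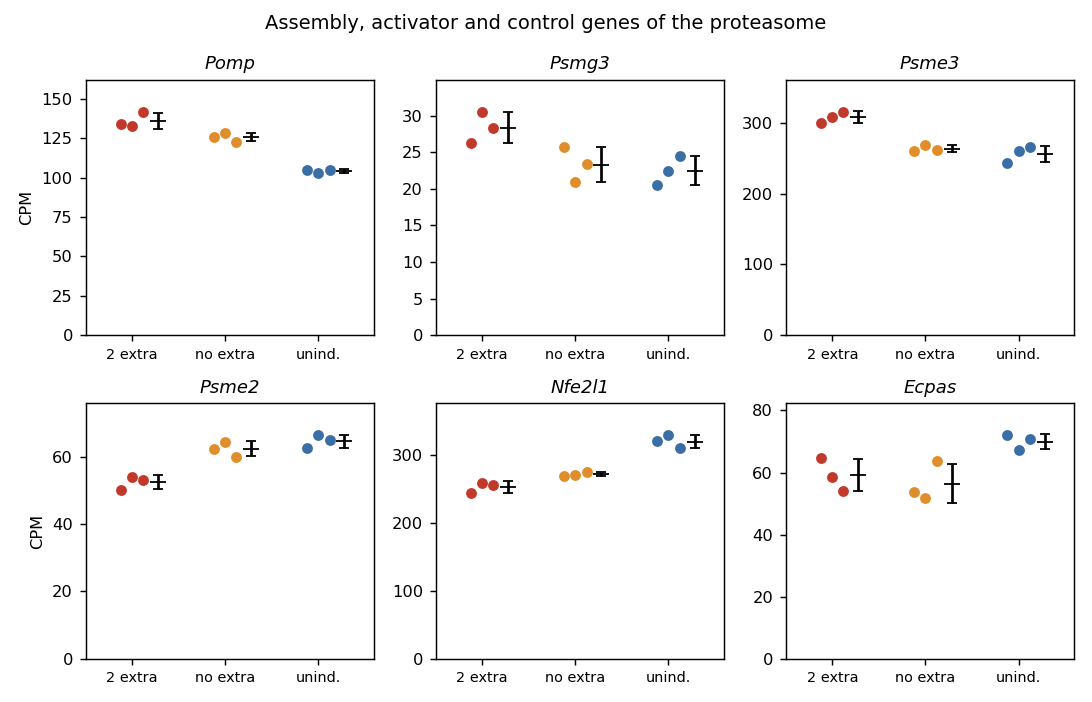
Level in CPM (y axis, from 0, a separate scale per gene) in each library of the core chaperones Pomp and Psmg3, the activator subunits Psme3 and Psme2, the Nrf1 gene Nfe2l1 and the scaffold gene Ecpas, with the mean and SD of 3 libraries beside each group. Nfe2l1 averages 253 CPM with 2 extra copies, 272 with no extra copy and 320 in uninduced cells, while Pomp runs in the other direction with 136, 126 and 104 CPM.

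Genes of ubiquitin supply and of substrate delivery to the proteasome were read in the same way. In the list of ubiquitin supply, the activating enzyme Uba1 was called lower at 1.08-fold with no extra copy against uninduced cells (adjusted p = 0.0276). That call was lost without uninduced replicate 2 (0.0832) or 3 (0.12) and without replicate 1 (0.151) or 2 (0.0647) with no extra copy. Of 11 shuttle and unfoldase genes, 4 were called higher with 2 extra copies than in uninduced cells, against 12.8% of all genes and 29.3% of those with at least 100 CPM, where all 4 lie. The median log2 change of the 11 was -0.05, and 6 of them were negative. The 4 called higher were Ubqln1, Nploc4, Rad23b and Ubqln4, at 1.09-fold to 1.14-fold, and the call of Ubqln4 was lost without uninduced replicate 3 (0.0788).

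The genes that feed proteasome products into MHC class I did not move as a block with the inducible subunits. Of 12 such genes 10 were tested. With 2 extra copies, 3 were called lower than with no extra copy, against 7.70% of all genes, which were Tapbp, Gbp2 and H2-D1, by 1.54-fold (adjusted p = 4.79e-05), 1.76-fold (0.00423) and 1.33-fold (0.0474). Against uninduced cells, 5 were called lower, against 12.1% of all genes, among them H2-D1 at 1.68-fold (8.4e-05), the interferon-responsive factor Irf1 at 1.28-fold (0.000753) and H2-K1 at 1.29-fold (0.00426), and B2m, the light chain, was called higher at 1.30-fold (0.00484). With no extra copy against uninduced cells, B2m, Gbp2 and Tapbp were called higher, at 1.43-fold (0.000387), 1.67-fold (0.0073) and 1.26-fold (0.0163), and H2-K1 lower at 1.29-fold (0.00723). The call of H2-D1 against no extra copy was lost without any 1 library other than replicate 2 with 2 extra copies (up to 0.292). That of H2-K1 was lost without uninduced replicate 1, with 0.0501 for 2 extra copies and 0.0767 for no extra copy, and without replicate 3 with 2 extra copies (0.0628). That of Tapbp with no extra copy against uninduced cells was lost without uninduced replicate 3 (0.0817) or replicate 2 with no extra copy (0.153). Tap1, the neighbour of Psmb8 and Psmb9, was not called, with an adjusted p of 0.145 for 2 extra copies against uninduced cells. Tap2, the neighbour on the other side of Psmb8, was called lower in that comparison at 1.90-fold (0.00467), at 13 to 18 counts per library with 2 extra copies. That call was kept whichever library was left out and lost by DESeq2 (0.102). Against no extra copy Tap2 was 1.58-fold lower and not called (0.0806).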

How the data were processed

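RNA was sequenced single-end at 75 bases from 9 libraries of sorted mouse ESCs, 3 per group. Per the file headers, the deposited values are RSEM expected counts on GRCm38. The submitters' processing notes name RSEM 1.17, cutadapt, Picard and limma; the aligner and the use of strand are not given in the sources used here. Groups came from the sample titles, since the labels repeat the tamoxifen text for uninduced cultures. Expected counts were rounded, names were matched for 35432 of 35771 IDs, and 13424 genes passed filterByExpr. All 9 libraries were fitted in edgeR 4.0.16 (R 4.3.3) with TMM factors and the robust quasi-likelihood F-test, 1 coefficient per group. P-values were adjusted by Benjamini-Hochberg over all genes tested and called below 0.05. Levels per kb used the coding transcript with the longest coding sequence. Totals of 4165286 to 8872303 counts per library limit the precision for genes such as Psmb8, whose 95% intervals cover counting error only. Close copies were annotated for 7 members, and those among the gene rows held at most 0.919% of the member's own counts. The copies of Psma4, Psmb5 and Psmc1, and part of those of Psma5 and Psmb3, had no row, so their counts are not known. Alternatives were other size factors, DESeq2 1.42.0, limma-voom (limma 3.58.1), no filter, a replicate block, a correction for transcript length, and leaving out each library. The tests were tried on simulated data. The members, lists and tests were chosen with earlier results of these data known. Values per library are given for the catalytic and inducible subunits and, per comparison, for the 3 genes of each of Psma, Psmb, Psmc and Psmd with the smallest p; Psma8 was added after its values were seen. Of each other list, up to 3 called genes per direction and comparison are named, and further names were added after the values were seen. The result of 1 gene of the ubiquitin supply list is not reported here.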

Additional observations from a re-analysis of the deposited data

How the results depend on the processing

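No gene called in a comparison changed direction there under any alternative run, but with the length trend removed the 20S median for no extra copy against uninduced cells turned to -0.00417, or -0.00327 with the replicate block as well. Leaving out each library in turn gave 1 to 8 genes of the 20S and 0 to 5 of the 19S particle called higher with 2 extra copies than with no extra copy, 5 to 12 and 2 to 8 for 2 extra copies against uninduced cells, and 1 to 3 and 0 to 1 for no extra copy against uninduced cells. Members called lower numbered 0 to 1, 1 to 2 and 0 in those comparisons. All genes called ranged over 750 to 1466 higher and 647 to 1098 lower, 1306 to 2004 and 1106 to 1715, and 622 to 1083 and 555 to 1118. The fewest lower calls between the induced populations were 649 without replicate 3 with 2 extra copies and 647 without replicate 2 with no extra copy, and the lowest counts of the third comparison also came without replicate 2 with no extra copy. The median log2 change of the 20S genes ranged over 0.0716 to 0.129, 0.0990 to 0.161 and 0.0292 to 0.0504, and that of the 19S genes over 0.0408 to 0.0963, 0.0259 to 0.0985 and 0.00456 to 0.0376.

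DESeq2 called 1 gene of the 20S, 0 of the 19S and 0 lower members for 2 extra copies against no extra copy (607 and 329 of all genes), 5, 3 and 0 for 2 extra copies against uninduced cells (986 and 642), and 1 and 0 higher for no extra copy against uninduced cells (323 and 362, against 953 and 858 by edgeR); the cause was not tested. Fits of the 6 libraries of the induced populations gave 1, 0 and 0, with Psmb8 not tested there. Library size alone gave 1 and 0 with a 19S median of 0.0202, and no filter gave 0 of the 19S genes for no extra copy against uninduced cells. Against uninduced cells, members called lower with 2 extra copies numbered 2 with library size alone, upper-quartile factors, limma-voom or the replicate block, and 3 with the length trend removed, with or without the block. The replicate numbers do not pair the libraries, since deviations correlated at -0.0752 to 0.0777. The replicate block gave 3, 9 and 3 genes of the 20S and 1, 6 and 1 of the 19S particle called higher in the 3 comparisons, and with the length correction 2 of the 19S in the first.

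The log2 difference of summed levels per length ranged, when each library was left out, over 0.0549 to 0.0952, 0.0988 to 0.148 and 0.0301 to 0.0686 for the 20S particle, 0.0195 to 0.0665, 0.0428 to 0.0898 and 0.00770 to 0.0398 for the 19S particle, and 0.0255 to 0.0392, 0.0555 to 0.0689 and 0.0224 to 0.0366 for their ratio. With the median over members, 2 extra copies and no extra copy against uninduced cells gave 0.204 and 0.135 for the 20S and 0.126 and 0.0596 for the 19S particle, and the ratio gave 0.00296, 0.0783 and 0.0754 in the 3 comparisons. With the length of all exons joined, the ratio gave 0.0759 and 0.0499 against uninduced cells. Depth limits Psmb8, Psmb9 and Psmb11 most.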
